A study of Citrullus lanatus with 30 samples.

Results

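A set of 89 loci, of 22596 loci measured in watermelon fruit, were at least 4 times as abundant in each of the 3 rind groups of the series as in flesh at 20 and 30 days after pollination (DAP). The members were chosen by these levels. The unit is FPKM, fragments scaled by length and by the mapped total of the library, so levels of different loci are compared per length. Which length was used for a locus is not given in the sources used here. For each locus the smallest of the 3 rind group means had to be at least 10 FPKM and at least 4 times the largest of the 4 means of 20 or 30 DAP flesh. Rind against 20 or 30 DAP flesh is therefore what defined the set, and those values are given as a description with no test.

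All tissue came from fruit of Citrullus lanatus. The rind groups were R4_CT (R4 rind, 20 DAP), R4_RF (R4 rind, 30 DAP) and R2_RF (R2 rind, 30 DAP), with 2 libraries each; the labels do not say what R2 and R4 stand for. The later flesh groups were CT (20 DAP, replicates 2 and 3), RF (30 DAP, 3 libraries), Mock (20 DAP, genotype given as Wild-type, 3 libraries) and 5_Aza (20 DAP, 3 libraries, treatment labelled 5-zazcytidine, with no dose or duration). The early flesh groups, which had no part in choosing the members, were PD (0 DAP), SW (5 DAP) and BW (10 DAP), with 3 libraries each. Stage and rind libraries were labelled cultivar 97103, while Mock and 5_Aza carried no cultivar label and the labels name no allele or transgene. The labels do not say whether replicates were separate fruits, so the p-values below rest on how these libraries scatter, and that scatter may be technical.

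The rind of a watermelon is the firm outer wall of the fruit, with the epidermis, its wax and cuticle, and green tissue beneath it. Flesh is the inner tissue, which enlarges by cell division and expansion after pollination and then softens, accumulates sugars and, in red cultivars, the pigment lycopene. The compound 5-azacytidine, for which the group name 5_Aza may stand, is an inhibitor of DNA methyltransferases, the enzymes that methylate cytosines in DNA. Loci are identified in the files by coordinates alone (on chromosome sequences with the prefix WM97pbV1_Chr, and on scaffolds) and are not paired with gene names, so what the members encode, and whether a position is exonic, was not analysed here. For the same reason the tissue labels could not be checked against marker genes.

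Summed FPKM per library ran from 762714 to 886495, and on log2(FPKM + 1) the correlation between replicates was 0.993 to 0.997. Read depth is not known from FPKM. The rind libraries name rind as their source but carry flesh as tissue, the extraction text names flesh for all samples, and rind libraries form a later run of sample numbers, so tissue and that run cannot be told apart. Values of the flesh stages are written to 6 significant digits, and those of rind, Mock and 5_Aza to 6 decimals. How either kind of value was computed is not given in the sources used here, and levels of early flesh, CT or RF set beside rind, Mock or 5_Aza cross these formats. At 5 FPKM or more in all Mock, 5_Aza and rind libraries, and at 0 in all SW, BW, CT and RF libraries used, were 47 of all loci and 0 members. The choice held Mock and 5_Aza low against rind, with member medians of 2.10 and 3.41 FPKM, so the 0 was in part preset. Whether members carry a difference between the formats was therefore not tested by it. Listed at 0 in every CT and RF library were 2 members, both described below with values above 0 in Mock. All 89 members had their lowest rind library above the highest library of Mock and 5_Aza, which share the format of the rind libraries, and also above the highest library of CT and RF, which do not. The lowest rind library was at least 4 times the highest Mock or 5_Aza library for 77 members and at least 4 times the highest CT or RF library for 83. The choice of members already put every rind mean at least 4 times each of these flesh means. These counts therefore follow largely from the choice and say nothing about an effect of the formats.

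The members ranged widely in abundance. Their smallest rind mean ran from 10.0 to 3082 FPKM with a median of 33.1, and it was 100 FPKM or more for 26 of them. The ratio of the smallest rind mean to the largest 20 or 30 DAP flesh mean ran from 4.01 to 115 with a median of 5.93; it was at least 10 for 28 members and at least 20 for 13. Among the 8438 loci at 10 FPKM or more in all 3 rind groups the median of this ratio was 0.690. The largest flesh mean at 20 or 30 DAP was below 1 FPKM for 13 members and 10 FPKM or more for 28, so the set held loci nearly undetected in later flesh and loci that were abundant there too. In whole tissue, fewer cells of a type and less RNA per cell cannot be told apart.

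**Figure D1:**
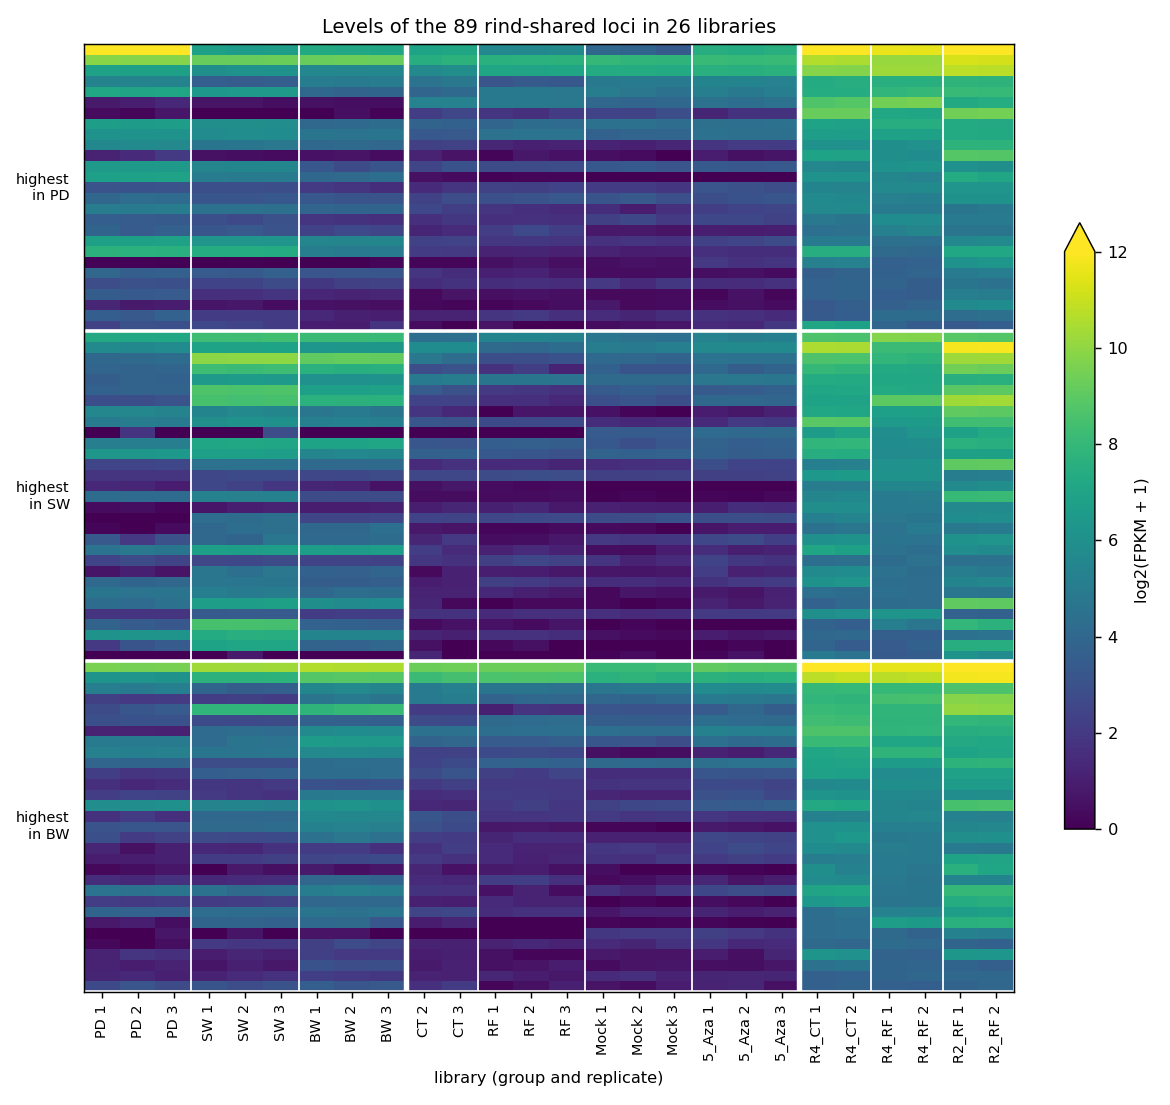
Heat map of log2(FPKM + 1) for the 89 loci (rows) in 26 libraries (columns), with rows grouped by the early flesh stage with the highest mean and sorted within each group by the smallest rind mean. The 6 rind columns at the right stand above the 20 and 30 DAP flesh columns in every row, as the choice of members requires, whereas the PD, SW and BW columns at the left range from near 0 to above the rind level.

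Close to the limits of the choice, the members chr5:31078888-31082653 and chr9:4689329-4689589 had ratios of 4.01 and 4.02, while chr10:5034599-5035075 and chr3:28921813-28922184 had ratios of 3.98 and 3.91 and were left out. At the abundance limit chr9:4638468-4638770 and chr9:13567116-13567712 had smallest rind means of 10.04 and 10.08 FPKM, and chr6:12306968-12307320 and chr10:18529662-18530972, at 9.69 and 9.65 FPKM, were left out. The edge of the set was thus gradual, with loci of nearly the same values on either side of each limit.

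Together the members held a small part of the transcript pool of later flesh and a larger part of that of rind. They took 3.92% ± 0.13 (SD, n = 2) of summed FPKM in R4_CT, 2.07% ± 0.02 in R4_RF and 7.78% ± 0.01 in R2_RF. In flesh they took 0.213% in CT, 0.229% in RF, 0.159% in Mock and 0.243% in 5_Aza. The share in early flesh was 1.04% in PD, 0.966% in SW and 0.741% in BW. A single locus, chr6:7824799-7825077, made up much of the rind share: without it the shares were 2.31% in R4_CT, 1.72% in R4_RF and 3.87% in R2_RF, and 0.474% in PD.

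**Figure D2:**
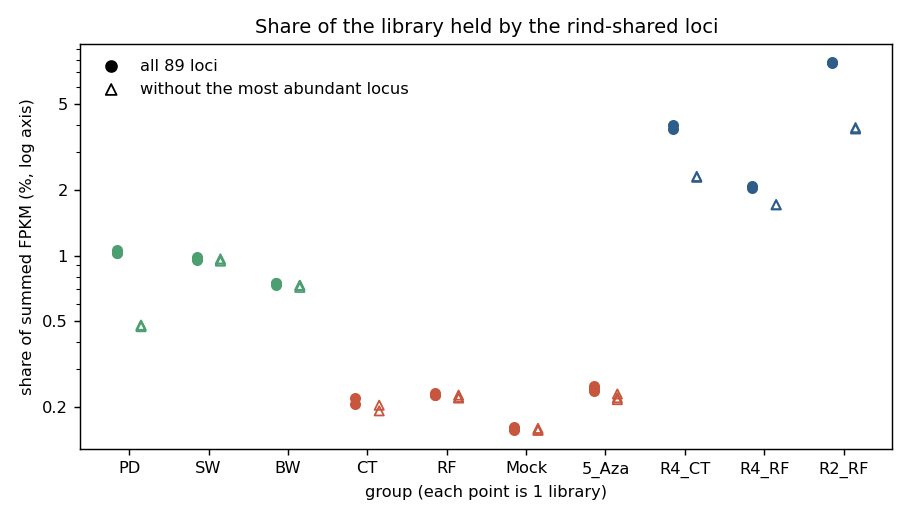
Share of summed FPKM held by the 89 loci in each library (circles) and by the set without its most abundant locus (triangles), on a log axis in percent; each point is 1 library. R2_RF stands highest at 7.78%, R4_RF is the lowest rind group at 2.07%, and PD falls from 1.04% to 0.474% without that locus.

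The most abundant member, chr6:7824799-7825077, is 279 bp long. Its level was 14687 and 13519.9 FPKM in the 2 R4_CT libraries, 3201 and 2962 in R4_RF and 33931 and 34620.4 in R2_RF. It was also high in PD, at 4492, 4707 and 4451 FPKM. The only usable library of 1 DAP flesh (AP replicate 3), which entered no comparison, had 10460 FPKM. Flesh from 5 DAP on was far lower, at 111, 99.5 and 104 in SW, 156, 144 and 137 in BW, 122 and 139 in CT and 48.3, 48.0 and 51.2 in RF. Mock had 15.7, 13.5 and 9.40 FPKM and 5_Aza 175, 166 and 186. No rind library overlapped any 20 or 30 DAP flesh library, and the rind groups themselves stood apart by 3082, 14103 and 34275 FPKM in their means.

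The second most abundant member, chr9:4689750-4690166, was abundant in all tissues. It stood at 5288 and 5437 FPKM in R4_CT, 2999.6 and 3002 in R4_RF and 6106 and 6063 in R2_RF. Its flesh means were 738 in PD, 1232 in SW, 1521 in BW, 639 in CT, 623 in RF, 285 in Mock and 498 in 5_Aza. The order within flesh was BW, SW, PD, CT, RF, 5_Aza and Mock, with CT at 622 and 655 FPKM and RF at 633, 629 and 608, which overlapped.

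The next member, chr3:5098428-5100157, had 1797 and 1953 FPKM in R4_CT, 1707 and 1825 in R4_RF and 3482 and 3619 in R2_RF. The R4 libraries of the 2 ages overlapped and R2_RF stood above both. In flesh its mean was 71.8 FPKM in PD and between 201 and 463 in the other groups, the highest of them BW. The fourth, chr1:34594417-34595235, had 1515 ± 59.3 FPKM in R4_CT (SD, n = 2), 1139 ± 10.6 in R4_RF and 2455 ± 62.4 in R2_RF, with PD at 919.7 ± 20.5 (n = 3) and all 20 and 30 DAP flesh means between 191 and 270.1. Its PD level thus lay between later flesh and the lowest rind group.

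For chr2:2513047-2514237 the levels were 891 and 868 FPKM in R4_CT, 1210.4 and 1219 in R4_RF and 1761 and 1704 in R2_RF. Here the 20 DAP rind was the lowest of the 3. Its flesh libraries at 20 and 30 DAP had 49.4 and 59.6 FPKM in CT, 138, 129.5 and 131 in RF, 166, 167 and 159.6 in Mock and 196, 191 and 199.5 in 5_Aza, with CT below the others. The member chr9:1629333-1630571 was highest in R4_RF, at 862 and 844 FPKM, against 397 and 375 in R4_CT and 471 and 442 in R2_RF. It was at 315 ± 13.1 FPKM in SW and 282 ± 6.46 in BW, and between 19.6 and 40.3 in the later flesh groups. As a ratio, flesh at 5 and 10 DAP was thus closer to each rind group than to flesh at 20 DAP for this locus, a comparison that crosses the number formats.

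The other 6 of the 12 most abundant members had smallest rind means of 224 to 288 FPKM. The member chr6:24894469-24895505 differed most between rind groups, with 288 and 288 FPKM in R4_RF, 1452 and 1438 in R4_CT and 3674 and 3729 in R2_RF. The member chr10:34828791-34829541 differed least between the 2 ages of R4, with 257 and 261 FPKM in R4_CT and 263 and 259 in R4_RF, which overlapped. The members chr5:620815-621585, chr9:30223691-30224107, chr9:25758894-25759496 and chr1:16123569-16124792 had R2_RF means of 886, 1031, 1246 and 236 FPKM. The last of these was the only one of the 12, beside chr9:1629333-1630571, whose highest rind mean was not in R2_RF, at 311 FPKM in R4_CT.

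The member with the largest ratio of rind to later flesh was chr11:6123353-6124463, at 115. Its libraries stood at 71.5 and 71.0 FPKM in R4_CT, 45.2 and 38.8 in R4_RF and 166 and 136 in R2_RF. It was listed at 0 in all Mock and 5_Aza libraries, and had 0.440 and 0.290 FPKM in CT and 0.102, 0.109 and 0.116 in RF. Early flesh was not low, with 109.8, 116 and 121 FPKM in PD, 32.0, 29.6 and 29.9 in SW and 15.7, 16.9 and 19.4 in BW, so that 0 DAP flesh was above the R4 rind groups.

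In early flesh, which the choice of members did not use, the members spanned the range from near 0 to above rind, and their medians were below those of loci at 10 FPKM or more in all rind groups. The median level over the 89 members was 10.1 FPKM in PD, 17.9 in SW and 15.5 in BW, against 2.74 in CT, 2.17 in RF, 2.10 in Mock and 3.41 in 5_Aza, and 69.4 in R4_CT, 44.3 in R4_RF and 127 in R2_RF. Over all 22596 loci the medians were 7.73 in PD, 7.81 in SW, 6.13 in BW, 4.55 in CT and 4.70 in RF. Over the 8438 loci at 10 FPKM or more in all rind groups they were 28.1 in PD, 29.7 in SW and 30.7 in BW. The largest of the PD, SW and BW means reached 10 FPKM for 64 members, which is 71.9% of them, against 52.9% of all loci and 92.9% of the loci at 10 FPKM or more in all rind groups. It reached the smallest rind mean for 29 members, 32.6%, against 78.8% and 66.0% in those 2 sets, and the largest rind mean for 7. It was at least 4 times the largest 20 or 30 DAP flesh mean for 47 members, 52.8%, against 19.0% and 2.95%, a share that the low later flesh of the members helps to set. It was no higher than that mean for 16 members and below 1 FPKM for 6. Since the members had to be low at 20 and 30 DAP, a fall from early to later flesh is in part fixed by the choice and was not tested.

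**Figure D3:**
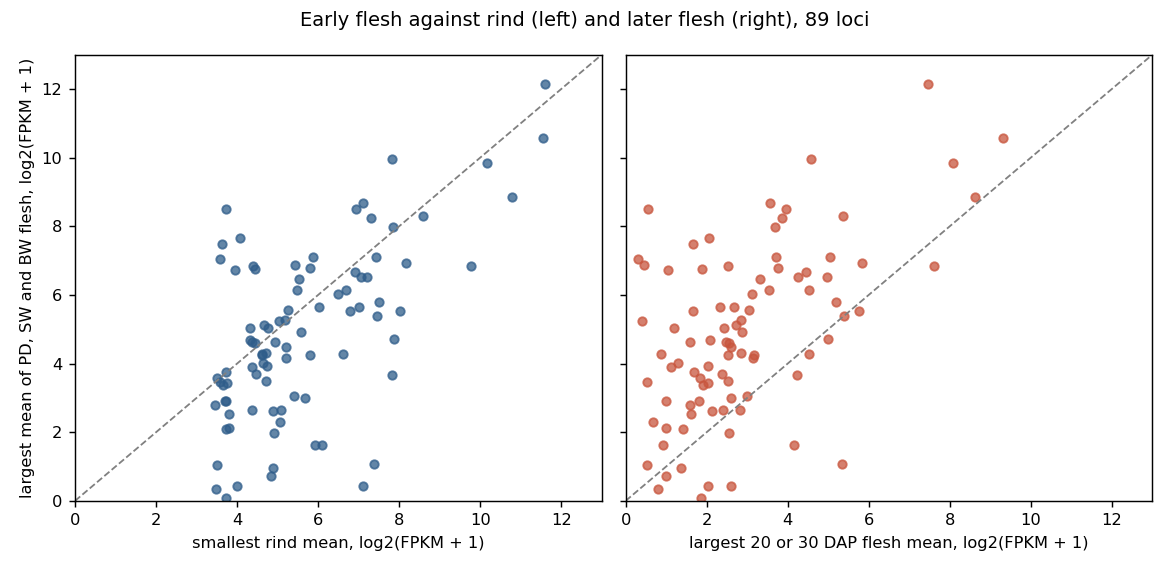
Each point is 1 of the 89 loci, with the largest of its PD, SW and BW means on the vertical axis against its smallest rind mean (left) and its largest 20 or 30 DAP flesh mean (right), all as log2(FPKM + 1); the dashed line marks equal values. At left 29 loci lie on or above the line, and at right 16 lie on or below it.

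At one end of this range was chr4:1853591-1853902, with 360.5, 367 and 349 FPKM in SW. It had 13.1, 10.2 and 8.59 FPKM in PD and 12.5, 12.4 and 11.5 in BW, at most 0.581 in any library of CT, RF, Mock or 5_Aza, and in rind 13.1 and 11.2 in R4_CT, 34.2 and 25.4 in R4_RF and 247 and 209 in R2_RF. Its early maximum was 29.5 times its smallest rind mean, the highest such ratio in the set, and stood above all rind libraries. The next was chr1:5711326-5718476, with 168, 183 and 177 FPKM in SW against 15.0 and 16.2 in R4_CT, 11.5 and 11.0 in R4_RF and 21.4 and 22.6 in R2_RF. For it too the SW libraries stood above all rind libraries.

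At the other end were loci measured in rind and hardly at all in early flesh. The member chr8:26463233-26463721 had 587 and 585 FPKM in R4_CT, 139 and 135 in R4_RF and 679 and 709 in R2_RF. All 9 libraries of PD, SW and BW were below 1 FPKM for it, the 3 of SW were listed at 0, and the later flesh means lay between 2.06 and 5.06. The member chr10:235989-238348 likewise was at most 0.107 FPKM in the early libraries, and had 36.6 and 39.0 FPKM in R4_CT, 11.9 and 12.7 in R4_RF and 69.2 and 77.4 in R2_RF.

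Changes between groups were tested with limma on log2(FPKM + 1) over all loci at 1 FPKM or more in at least 2 libraries of a fit. A locus was called higher or lower at a Benjamini-Hochberg adjusted p under 0.05 over all loci tested and a change of at least 2-fold on that scale. The log2(FPKM + 1) scale understates the change of low loci. In the fit of the flesh stages 84 members were tested, none of which had passed through libraries of 1 stage alone, and 5 stayed below the limit. The other fits tested all 89, which passed through their rind libraries.

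Between 0 and 5 DAP more members rose than fell. From PD to SW 31 members rose and 8 fell, while 11.6% of all 17547 loci tested rose and 12.2% fell. Among loci at 10 FPKM or more in all rind groups the shares were 11.4% and 5.01%. The median change was 0.23 over the members and -0.03 over all loci tested, as log2 fold changes. The member chr9:25758894-25759496 rose from 15.5, 16.6 and 17.7 FPKM in PD to 971, 982 and 999.9 in SW, a log2 fold change of 5.81 ± 0.10 (SE, limma adjusted p = 2.76e-13). The member chr4:24619230-24619996 rose from 6.28, 6.34 and 7.51 FPKM to 367, 345 and 362, a log2 fold change of 5.54 ± 0.08 (SE, limma adjusted p = 3.77e-14). Of those that fell, chr6:7824799-7825077 went from 4492, 4707 and 4451 FPKM to 111, 99.5 and 104 and changed by -5.43 ± 0.06 (SE, limma adjusted p = 1.72e-14), and chr11:6123353-6124463 went from 109.8, 116 and 121 FPKM to 32.0, 29.6 and 29.9 and changed by -1.89 ± 0.07 (SE, limma adjusted p = 1.38e-10). The libraries of the 2 stages did not overlap for any of these 4 loci.

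Between 5 and 10 DAP the members moved in both directions. From SW to BW 16 rose and 18 fell, against 5.19% and 10.1% of all loci tested, and 6.94% and 2.8% of loci at 10 FPKM or more in all rind groups. As log2 fold changes the members had a median of -0.13 and all loci of -0.15. Scaling the libraries by median of ratios moved the median of all loci by 0.12 here, by 0.13 from PD to BW and by -0.11 in the comparison of 5_Aza with Mock. The member chr11:26221782-26224635 rose from 3.12, 2.67 and 2.32 FPKM in SW to 28.2, 30.0 and 29.7 in BW, a log2 fold change of 3.04 ± 0.08 (SE, limma adjusted p = 2.02e-11). The member chr5:620815-621585 rose from 3.60, 3.89 and 3.23 FPKM to 23.7, 28.4 and 23.8, a log2 fold change of 2.52 ± 0.09 (SE, limma adjusted p = 1.58e-10). Of those that fell, chr4:1853591-1853902, described above, changed by -4.77 ± 0.12 (SE, limma adjusted p = 1.07e-11), and its neighbour chr4:1839296-1839637 went from 125, 135 and 131 FPKM to 13.3, 12.8 and 14.6 and changed by -3.18 ± 0.29 (SE, limma adjusted p = 1.32e-06). These neighbours had their highest early level in SW, and their BW means of 12.1 and 13.6 FPKM compare with 10.6 and 6.86 in PD.

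Over the whole interval from 0 to 10 DAP, 32 members rose and 19 fell, against 14% and 22% of all loci tested, and 18.5% and 9.89% of loci at 10 FPKM or more in all rind groups. Members had a median log2 fold change of 0.53 and all loci one of -0.17. The member chr9:25758894-25759496 was still at 540.2, 566 and 563 FPKM in BW, a change from PD of 4.99 ± 0.10 (SE, limma adjusted p = 3.17e-13). The member chr9:30223691-30224107 rose from 5.82, 8.12 and 9.86 FPKM in PD to 226, 255 and 269 in BW, a log2 fold change of 4.83 ± 0.19 (SE, limma adjusted p = 1.66e-10), and its BW libraries overlapped those of R4_CT, at 274 and 256 FPKM, and of R4_RF, at 231 and 229. The member chr6:7824799-7825077 fell, a log2 fold change of -4.96 ± 0.06 (SE, limma adjusted p = 4.85e-15). The member chr7:27703737-27704866 fell from 87.7, 86.4 and 88.0 FPKM to 8.46, 5.98 and 7.66, a log2 fold change of -3.41 ± 0.12 (SE, limma adjusted p = 4.64e-11); its rind means were 45.1 FPKM in R4_CT, 71.1 in R4_RF and 64.9 in R2_RF.

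**Figure D4:**
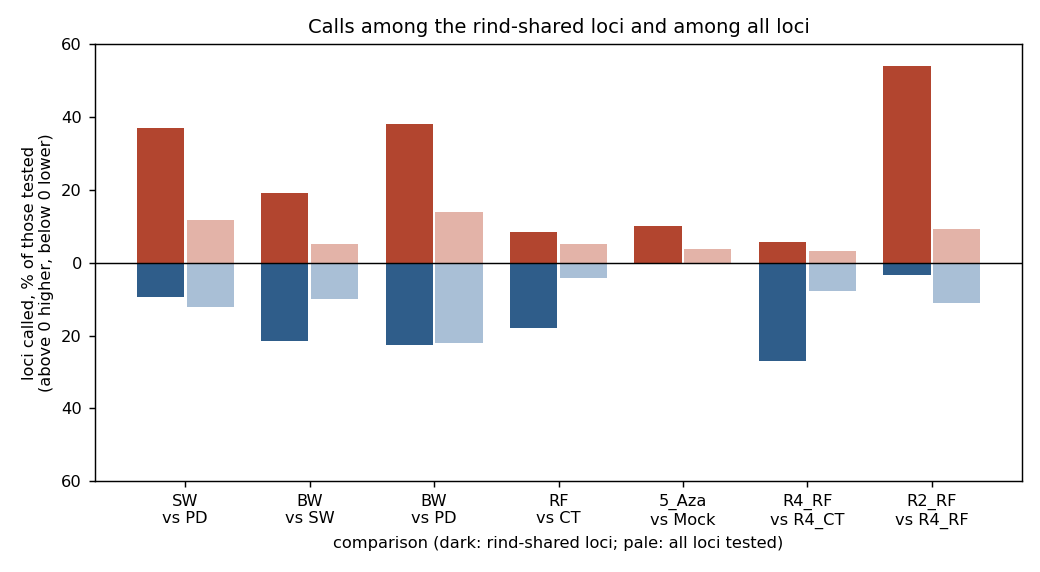
Percentage of tested loci called higher (above 0) or lower (below 0) in 7 comparisons, for the rind-shared loci (dark bars) and for all loci tested (pale bars). The tallest dark bar is the 48 of 89 members higher in R2_RF than in R4_RF, beside 9.26% of all loci. All groups but PD, SW and BW entered the choice of members, so the bars of those other groups are a description.

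Within flesh between 20 and 30 DAP, 7 members rose from CT to RF and 15 fell, against 5.17% and 4.15% of all loci tested, and 4.29% and 3.58% of loci at 10 FPKM or more in all rind groups. Without CT replicate 2 the number that rose was 4, beside 4.93% of all loci tested. With a pseudocount of 0.1 the number that fell was 23, beside 7.49% of all loci. The choice set an upper limit on CT and RF, so these counts and the p-values of the loci named next are a description. Members had a median log2 fold change of -0.18 and all loci one of 0.01. The member chr1:16123569-16124792 rose from 5.80 and 5.53 FPKM in CT to 16.7, 17.4 and 18.6 in RF, a log2 fold change of 1.48 ± 0.06 (SE, limma adjusted p = 1.33e-09). The member chr2:2513047-2514237 rose by 1.28 ± 0.07 (SE, limma adjusted p = 1.29e-08) with the values given above. The member chr6:24894469-24895505 fell from 55.6 and 55.8 FPKM to 16.7, 15.1 and 18.0, a log2 fold change of -1.69 ± 0.07 (SE, limma adjusted p = 7.33e-10), and chr9:25758894-25759496 fell from 26.9 and 18.5 FPKM to 6.31, 6.30 and 7.06, a log2 fold change of -1.63 ± 0.11 (SE, limma adjusted p = 1.46e-07). The rise of chr2:2513047-2514237 and of chr1:16123569-16124792 left both far below every rind library.

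In flesh treated with 5_Aza at 20 DAP, 9 members were higher than in Mock and 0 were lower. Over all 17100 loci tested 3.8% were higher and 0.181% lower, and over loci at 10 FPKM or more in all rind groups 1.53% and 0.0948%. At an unadjusted p under 0.05, limma found 3 members lower in 5_Aza, 0 of them by 2-fold or more. The choice set an upper limit on the Mock and 5_Aza means and the members entered this fit through rind, so the counts are a description and nothing about the members is read from them against the background. In a fit of the Mock and 5_Aza libraries alone 67 members were tested, 9 were higher and 0 lower, beside 4.11% and 0.183% of all 15809 loci tested. After median-of-ratios scaling 6 members were higher and 1 lower, beside 3.06% and 0.31% of all loci. With a pseudocount of 0.1 they were 23 and 1, beside 7.04% and 0.404%. The median change was 0.46 over the members and 0.08 over all loci. Most members were low in both groups, with median levels of 2.10 FPKM in Mock and 3.41 in 5_Aza.

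The member with the largest change was chr6:7824799-7825077, with 15.7, 13.5 and 9.40 FPKM in Mock and 175, 166 and 186 in 5_Aza, a log2 fold change of 3.70 ± 0.15 (SE, limma adjusted p = 2.96e-07). The treated level was above that of CT, the 20 DAP flesh of the stage series, at 122 and 139 FPKM, and remained far below the lowest rind library at 2962 FPKM. The member chr2:24262387-24262836 had 8.39, 7.86 and 6.20 FPKM in Mock and 20.0, 16.1 and 17.6 in 5_Aza, a log2 fold change of 1.16 ± 0.09 (SE, limma adjusted p = 1.08e-07), and CT had 13.2 and 14.4 FPKM. For both loci all treated libraries were above all Mock libraries. Both were picked for the largest changes without overlap, from members whose choice used these means, so their p-values are a description.

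More members fell than rose with age in R4 rind. From R4_CT at 20 DAP to R4_RF at 30 DAP 5 members rose and 24 fell, against 3.06% and 7.74% of all loci tested, and 2.13% and 3.59% of loci at 10 FPKM or more in all rind groups. The median change was -0.35 over the members and 0.00 over all loci. The rind means entered the choice of members, and the members entered this fit through rind. These counts and the p-values of the loci named next are therefore a description. The member chr3:27624977-27634417 fell from 175 and 178 FPKM to 16.6 and 15.1, a log2 fold change of -3.40 ± 0.09 (SE, limma adjusted p = 3.08e-13), and chr9:4638468-4638770 fell from 130.1 and 116 FPKM to 14.3 and 10.1, a log2 fold change of -3.25 ± 0.20 (SE, limma adjusted p = 4.24e-09). In R2_RF the first of these had 139 and 139 FPKM and the second 9.07 and 11.0, so the first was low in R4_RF alone and the second in both 30 DAP groups. Of those that rose, chr1:28018939-28019250 went from 18.8 and 20.2 FPKM to 100.4 and 92.6, a log2 fold change of 2.25 ± 0.10 (SE, limma adjusted p = 6.56e-11), and chr4:24619230-24619996 from 122 and 119 FPKM to 495 and 508, a log2 fold change of 2.05 ± 0.08 (SE, limma adjusted p = 1.31e-11). Replicates of the 2 ages did not overlap for these 4 loci.

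The members higher in 5_Aza were also looked up among those that fell with age. The comparisons of 5_Aza with Mock and of the 2 ages of R4 rind share no library, but come from the same fit with a common spread per locus. Of the 9 members higher in 5_Aza 8 were lower in R4_RF than in R4_CT, which is 88.9% of the 9 and 33.3% of the 24. Over all loci tested 301 were in both lists, 46.3% of the 650 higher in 5_Aza and 22.8% of the 1323 lower in R4_RF, while 7.74% of all loci were lower in R4_RF. Of the members themselves 27.0% were lower in R4_RF. With age in flesh, of 8 members higher in 5_Aza and tested in both fits 2 were lower in RF than in CT, which is 25% of the 8 and 13.3% of the 15. Over all loci tested in both fits this overlap held 76 loci, 14.9% of 511 and 10.8% of 705. Lower in RF than in CT were 17.9% of the members and 4.41% of all loci tested in both fits. Of the 9 members higher in 5_Aza 6 were higher in R2_RF than in R4_RF, while 53.9% of all members were. Over all loci tested this overlap held 274, 42.2% of the 650, while 9.26% of all loci were higher in R2_RF. Of the 15 members lower in RF than in CT 4 were lower in R4_RF than in R4_CT, which is 26.7%. Of the members tested in both fits 26.2% were lower in R4_RF. Over all loci tested in both fits 205 were in both lists, 29.1% of 705, while 7.63% of all loci were lower in R4_RF. All these groups entered the choice of members, and differences between the overlaps were not tested.

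R2 rind had the highest level of most members. At 30 DAP 48 members were higher in R2_RF than in R4_RF and 3 were lower, against 9.26% and 11% of all loci tested, and 6.27% and 8.98% of loci at 10 FPKM or more in all rind groups. The median change was 1.02 over the members and -0.06 over all loci. Here too the choice used the rind means and members passed the filter through rind, so the counts are a description. Of the 3 rind means the largest was R2_RF for 59 members, R4_CT for 20 and R4_RF for 10, and the smallest was R4_RF for 50, R4_CT for 28 and R2_RF for 11. Among the members R4_RF was thus most often the group held against the limits of the choice. Which group kept other loci out was not counted.

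The member chr2:5602271-5602603 had 18.2 and 18.4 FPKM in R4_RF and 532 and 517 in R2_RF, a log2 fold change of 4.77 ± 0.14 (SE, limma adjusted p = 1.28e-13). The member chr4:1839296-1839637 had 9.88 and 12.2 FPKM and 178 and 179, a log2 fold change of 3.91 ± 0.14 (SE, limma adjusted p = 1.22e-12). In the opposite direction chr9:4189778-4192676 had 71.9 and 74.2 FPKM in R4_RF and 12.5 and 12.3 in R2_RF, a log2 fold change of -2.47 ± 0.09 (SE, limma adjusted p = 1.86e-12), and chr6:4694232-4696002 had 686 and 731 FPKM and 158 and 171, a log2 fold change of -2.10 ± 0.08 (SE, limma adjusted p = 1.84e-12). Libraries of R2_RF and R4_RF did not overlap for any of the 4. They were picked for the largest changes without overlap, from members whose choice used these rind means. Their p-values are therefore a description.

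Counted at an adjusted p under 0.05 with no limit on the size of the change, the members called were more, and so was the background. From PD to SW 39 rose and 31 fell, against 37.1% and 40.8% of all loci tested. From SW to BW 28 rose and 41 fell, against 24.5% and 46%. From PD to BW 48 rose and 30 fell, against 34.9% and 48.5%. Between CT and RF 22 rose and 40 fell, against 31.3% and 26.7%. In 5_Aza 55 were higher and 1 lower than in Mock, against 28.4% and 11.5%. With age in R4 rind 20 rose and 46 fell, against 26.1% and 27.1%. In R2_RF 63 were higher and 10 lower than in R4_RF, against 31.4% and 38.4%. All groups but PD, SW and BW entered the choice of members, so the counts for those other groups are a description.

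The change from 20 to 30 DAP in R4 rind and in flesh is set side by side here as a description. The choice used the means of all 4 groups and held flesh low against rind, and log2(FPKM + 1) compresses changes of low levels, so the interaction of a member can restate its change in rind and is not read as a difference between rind and flesh. The members also entered this fit through rind. The interaction, (R4_RF minus R4_CT) minus (RF minus CT) on log2(FPKM + 1), was positive for 14 members and negative for 19, against 5.59% and 10.2% of all 16664 loci tested, and 4.97% and 6.42% of loci at 10 FPKM or more in all rind groups. Without the limit on size it was positive for 23 and negative for 39, against 21.3% and 28.4%. Its median was -0.35 over the members and -0.06 over all loci. For chr1:28018939-28019250 the interaction was 3.35 ± 0.18 (SE, limma adjusted p = 6.63e-07). It rose in rind, while flesh had 0.863 and 1.45 FPKM in CT and was listed at 0 in all 3 libraries of RF. For chr4:24619230-24619996 it was 2.94 ± 0.13 (SE, limma adjusted p = 2.45e-07), with 4.32 and 4.54 FPKM in CT and 2.07, 2.19 and 1.59 in RF. For chr9:4638468-4638770 it was -3.27 ± 0.34 (SE, limma adjusted p = 8.79e-05), but no flesh library of CT or RF exceeded 0.560 FPKM, and with a pseudocount of 0.1 the adjusted p was 0.105. For chr8:3370610-3372128 it was -2.92 ± 0.20 (SE, limma adjusted p = 3.04e-06), with 69.9 and 76.3 FPKM in R4_CT and 19.3 and 18.8 in R4_RF, and 0.959 and 1.14 in CT and 3.90, 3.34 and 2.46 in RF.

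The members lay on all 11 chromosomes. Chromosome 9 held 15 of them, 16.9% of the set against 10.0% of all loci, and chromosome 11 held 3, 3.37% against 8.44%. Lengths here are the spans of the coordinates, which need not be the lengths used for FPKM. Members were shorter than loci in general, with a median length of 1432 bp against 2347 bp over all loci and 3076 bp over loci at 10 FPKM or more in all rind groups. Loci of up to 1000 bp made up 37.1% of the members, 23.6% of all loci and 14.7% of the loci at 10 FPKM or more in all rind groups. Within 100000 bp of another member lay 24 members, and 10 formed 5 runs of 2 consecutive loci of the list, the longest run being 2. Such counts were not made for other loci, so no clustering of the set is read from them.

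The neighbours on chromosome 4, chr4:1839296-1839637 and chr4:1853591-1853902, are 342 and 312 bp long, lie 13953 bp apart, and shared a pattern of high SW and R2_RF levels, at 131 and 359 FPKM in SW and 178 and 228 in R2_RF. The pair chr1:28018939-28019250 and chr1:28034032-28034358, 14781 bp apart, both rose from PD, with means of 0.710 and 13.7 FPKM, to SW, with 13.2 and 302, while from R4_CT to R4_RF the first rose and the second had means of 245 and 157 FPKM and was not called. On chromosome 9 chr9:6463399-6464693 and chr9:6496549-6498695, 31855 bp apart, were both highest in R4_CT, at 121 and 484 FPKM, and lowest in R4_RF among rind groups, at 20.6 and 88.2. The pair chr1:16123569-16124792 and chr1:16141581-16144525, 16788 bp apart, stood apart in level, with means of 236 and 23.2 FPKM in R2_RF.

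The closest pair, chr9:4689329-4689589 and chr9:4689750-4690166, is separated by 160 bp. The second is the abundant member described above, and the first had 99.6 and 127 FPKM in R4_CT, 58.5 and 76.1 in R4_RF and 115 and 160.2 in R2_RF. It was listed at 0 in every library of BW, CT and RF used, and above 0 in 1 library each of PD and SW, yet had 9.75, 10.3 and 9.82 FPKM in Mock and 17.2, 16.1 and 17.0 in 5_Aza. The same held for CT and RF at chr8:22982417-22983919, which had 2.89, 3.14 and 3.17 FPKM in Mock. Libraries of 20 DAP flesh thus differed in these loci between the number formats, which the choice of members spans because it required rind to exceed flesh in both. Whether neighbouring loci resemble each other in sequence, or reads were split between them, was not tested.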

How the data were processed

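RNA-seq libraries of watermelon flesh and rind were compared. The authors deposited FPKM per locus, per the file headers. Per the submitters' processing notes, fastp, HISAT2 and SAMtools 1.5 were used; the quantifier is not given in the sources used here, and the same holds for the annotation. FPKM are already divided by length and library total, so read depth is unknown and no counting interval is given. Files were joined on the locus column. In PD replicate 3, a stray record had displaced 11643 values by 1 row; after shifting them back they correlated with PD replicate 1 at 0.993, against 0.12 before. AP (1 DAP) replicates 1 and 2 did not follow the loci (highest correlation with another group 0.0072 and 0.0077) and were left out. AP replicate 3 entered no comparison. CT replicate 1 holds a block of 50 rows at a correlation of 0.708 and was left out of the choice of members and of the main fits.

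Separate limma fits (version 3.58.1, R 4.3.3; empirical Bayes, trended and robust) used log2(FPKM + 1) for loci at 1 FPKM or more in at least 2 libraries: 14 libraries of PD, SW, BW, CT and RF (17547 loci, 9 residual degrees of freedom), 12 of Mock, 5_Aza and rind (17100 loci, 7) and 9 of CT, RF and R4 rind (16664 loci, 5). Benjamini-Hochberg adjustment covered all loci tested, and calls needed an adjusted p under 0.05 and a change of at least 2-fold. The fits were tested on simulated data. The rind groups of 2 libraries borrow their spread from the whole fit. Named loci were the 12 with the largest smallest-rind mean, those nearest the limits, and per comparison up to 2 called higher and 2 called lower with the largest change, no overlap of replicates and at least 10 FPKM in the higher group. Also named were the 2 highest and 2 lowest ratios of early flesh to rind, and the members of runs; loci given beside these were chosen after their values were seen. The members, the lists and the tests were chosen with earlier results of these data known. Lists of genes by product could not be applied, as the files pair no locus with a product. Alternatives were another pseudocount, median-of-ratios scaling, no filter, no fold limit, the replicate number as a block, other groups in the fit, CT replicates 1 to 3, and each replicate left out.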

Additional observations from a re-analysis of the deposited data

Results flagged for a closer look

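The interaction of age with tissue, the change from 20 to 30 DAP in R4 rind minus that in flesh, passed limma's threshold for 14 members in the positive direction and 19 in the negative direction, beside 5.59% and 10.2% of all loci tested. All 4 groups entered the choice of members, which holds flesh low, so these values are listed as a description and not read as a difference between rind and flesh. The interaction was 3.35 for chr1:28018939-28019250 and 2.94 for chr4:24619230-24619996, both higher in R4_RF than in R4_CT and low in flesh. It was -3.27 for chr9:4638468-4638770 and -2.92 for chr8:3370610-3372128, both lower in R4_RF than in R4_CT. The part that the compression of low flesh levels on log2(FPKM + 1) has in these values was not tested beyond the pseudocount of 0.1, under which the adjusted p of chr9:4638468-4638770 was 0.105 and the other named calls of the interaction were kept.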

How the results depend on the processing

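The number of members was 123 at 3 times and 61 at 5 times the largest flesh mean, 121 and 63 with a smallest rind mean of at least 5 and 20 FPKM, 82 after median-of-ratios scaling (80 of them members), 88 with CT replicates 1 to 3, and 87 to 89 without each replicate in turn. It was 72 where every rind library had to be 4 times the highest flesh library. Without the limit on fold change, counts of called members grew most: 31 fell from PD to SW, 28 rose and 41 fell from SW to BW, 30 fell from PD to BW, and 22 rose and 40 fell from CT to RF. Likewise 55 were higher and 1 lower in 5_Aza, 20 rose and 46 fell in R4 rind with age, 10 were lower in R2_RF than in R4_RF, and the interaction was positive for 23 and negative for 39. With a pseudocount of 0.1, 23 fell from CT to RF, beside 7.49% of all loci, and 23 were higher and 1 lower in 5_Aza, beside 7.04% and 0.404%. After scaling 1 was lower in 5_Aza, beside 0.31%. With a replicate left out in turn, members that rose from CT to RF numbered 4 to 7, the 4 beside 4.93% of all loci, and members lower in 5_Aza 0 to 1. Correlations of deviations between same-numbered libraries of 2 groups ran from -0.11 to 0.14, which does not settle whether replicate numbers pair the libraries. In a group of 2 libraries the deviations mirror each other, so both replicates of a rind pair gave the same value. With the replicate number as a block, 5 members rose and 14 fell from CT to RF, beside 5.15% and 4.19% of all loci. The interaction was positive for 14 and negative for 20, beside 5.48% and 10.3%. The block changed no count of members in the other comparisons. From PD to SW they were 31 and 8, beside 11.6% and 12.2% of all loci. From SW to BW they were 16 and 18, beside 5.2% and 10.1%, and from PD to BW 32 and 19, beside 14% and 22%. For 5_Aza 67 members were tested, with 9 higher and 0 lower beside 4.11% and 0.183%. For R4 rind with age the counts were 5 and 24, beside 3.16% and 7.97%. For R2_RF against R4_RF they were 48 and 3, beside 9.55% and 11.3%. For the comparisons within Mock and 5_Aza and within rind, the same smaller fits without the block, added after seeing the data, gave the same counts. Of 344 alternative values of the 30 named fold changes 343 kept their call and 0 changed sign. The named loci were picked for the largest called changes, which favours this, so it does not extend to the other members. FPKM without depth, and 2 libraries in each rind group, limit the precision of low levels.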

Other observations

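The library of 1 DAP flesh (AP replicate 3), which has no usable replicate and entered no comparison, held 3.06% of its summed FPKM in the members, above the 1.04% of PD and the 0.966% of SW. The most abundant member, chr6:7824799-7825077, stood at 10460 FPKM in it, between its R4_RF and R4_CT means, and chr1:34594417-34595235 at 8698 FPKM, above its R2_RF mean of 2455. These 2 loci held much of the members' summed 26144 FPKM in this library, so its share rests largely on them. Without the first of them the share was 1.84%, beside 0.474% in PD and 0.952% in SW. The share without both was not computed. The median over the members was 16.0 FPKM in this library. No other library of the same age was used, so these are values of 1 library.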
